A study of Mus musculus with 6 samples.

Results

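Single transcripts of 372 of the 477 panel genes were compared by whether they lay over the cell nucleus or outside it, in 4 mouse sections imaged by Xenium, an in situ method that places each decoded transcript of a gene panel in the tissue. A gene entered a section's comparison when at least 1000 of its transcripts lay in segmented cells with a quality score of 20 or more, the instrument software's measure of decoding confidence. That rule left 292 genes for the fetal liver at E14.5, 253 for the bone marrow at P8, 293 for the untreated spleen and 273 for the PHZ spleen, and 195 genes reached the minimum in all 4. The genes tested carried between 98.9% and 99.6% of a section's transcripts, and the 184 to 224 panel genes below the minimum in a section were not compared there. The rule counted transcripts without regard to where in the cell they lay.

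Messenger RNA is made and spliced in the nucleus and exported to the cytoplasm, where ribosomes translate it. Messages for secreted and membrane proteins are translated at the endoplasmic reticulum, whereas many long noncoding RNAs and unspliced or retained transcripts stay in the nucleus. In the erythroid niche, erythroblasts surround macrophages, and they condense and finally expel their nuclei, while megakaryocytes and muscle fibers hold large volumes of cytoplasm.

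The study mapped the cells of mouse erythroid niches, and all sections came from wild-type C57BL/6 mice, fixed in formalin, embedded in paraffin and cut at 5 µm. The fetal liver was taken at E14.5 and the bone marrow at P8 from the leg, and the spleens came from an adult mouse and from a mouse given phenylhydrazine (PHZ), a drug that lyses red cells, at 40 mg/kg by intraperitoneal injection 2 times a day for 2 days. The labels do not say whether the mouse of the untreated spleen received vehicle. Each condition had 1 section, the fetal liver and bone marrow lay on one slide and both spleens on another, and all were imaged in the same run, so that no comparison between sections has a replicate or a test.

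The labelled tissues held their defining markers. Of 10 erythroid markers, all 10 reached 1000 transcripts in every section, at a summed CPM of 354837 in the E14.5 liver, 207299 in the P8 marrow, 25769 in the untreated spleen and 222918 in the PHZ spleen. Of 9 hepatocyte markers, 8 reached the minimum in the fetal liver and 1 in each other section, and all 5 T cell markers reached it only in the spleens. The bone marrow section also held bone, cartilage and muscle, with 7 of 7 skeletal muscle markers above the minimum. Between 6446659 and 20952143 transcripts per section were kept in 52594 to 117329 cells, and pairs of sections shared between 1 and 6 cell names.

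A transcript was counted as nuclear when it lay over the outline of a stained nucleus seen from above, so cytoplasm above or below a nucleus counted with it. Every outlined cell held a nucleus, so cells or fragments without one had no outline of their own. Their transcripts fell to outlined cells or outside all cells. Cell outlines were used as deposited and were not checked against cell borders. Nuclei filled a median 57.8% of the cell outline in the E14.5 liver, 48.7% in the P8 marrow, 61.2% in the untreated spleen and 45.3% in the PHZ spleen. The share of all kept transcripts that was nuclear was 57.2%, 48.9%, 58.9% and 51.0% in the same order. Transcripts spread evenly over each cell's area would have given 55.2%, 42.9%, 56.7% and 43.3%, so the measured share was above the even share in all 4 sections. The exact binomial 95% interval of the least deeply measured total, in the P8 marrow, ran from 48.8% to 48.9%, and like all intervals here it covers counting error only.

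The nuclear share of single genes ran much wider than the totals of the sections. In the E14.5 liver it ranged from 37.0% for Krt19, a keratin of bile duct and other epithelia, to 89.0% for Prss3, a trypsin. In the P8 marrow it ran from 12.7% for Cox8b, a muscle subunit of cytochrome c oxidase, to 77.6% for the long noncoding RNA A330076H08Rik. In the untreated spleen the ends were 16.3% for Car3, a carbonic anhydrase of muscle and fat, and 89.6% for Gpx2, an epithelial glutathione peroxidase. In the PHZ spleen they were 19.8% for Cnn1, a smooth muscle calponin, and 87.7% for Gpx2. The widest interval of any gene was 6.16 percentage points, and the median gene moved by 3.61 to 11.2 points between the 4 quadrants of a section, the bone marrow being the widest.

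Against all other genes of the same section, without regard to the cell, 41 genes (14%) had at least 1.5-fold higher and 56 (19.2%) at least 1.5-fold lower odds of being nuclear in the E14.5 liver. The same counts were 60 (23.7%) and 80 (31.6%) in bone marrow, 72 (24.6%) and 45 (15.4%) in the untreated spleen, and 70 (25.6%) and 67 (24.5%) after PHZ. At 2-fold they were 23 (7.88%) and 4 (1.37%), 23 (9.09%) and 50 (19.8%), 31 (10.6%) and 15 (5.12%), and 33 (12.1%) and 30 (11.0%) in that order. The bone marrow was the section with the most genes far on the extranuclear side.

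The plain share of a gene moved with the share of cell area that its cells' nuclei filled. Across genes, the Spearman correlation of the nuclear share with the share expected from area was 0.49 over 292 genes in the E14.5 liver, 0.91 over 253 in the P8 marrow, 0.75 over 293 in the untreated spleen and 0.81 over 273 in the PHZ spleen, and genes held by the same cells share that shape. Genes were therefore also compared within cells. The odds of a gene's transcripts lying over the nucleus were divided by the odds for all other genes in the same cell and combined over cells, which gives a cell-matched odds ratio. This value was less closely tied to area, but not free of it, with Spearman correlations of 0.24, 0.14, 0.45 and 0.61 with the share expected from area in the same order. A log2 value of 0 means that a gene was placed as its cell neighbors were, a positive value that it was more nuclear, and a gene past 1.5-fold was counted as standing apart.

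By this measure more genes stood on the nuclear than on the extranuclear side. In the E14.5 liver 50 of 292 genes were at least 1.5-fold more nuclear, 17.1% of those tested, and 21 genes, 7.19%, were at least 1.5-fold less nuclear. The counts were 34 (13.4%) and 4 (1.58%) of 253 in the P8 marrow. They were 60 (20.5%) and 13 (4.44%) of 293 in the untreated spleen, and 55 (20.1%) and 27 (9.89%) of 273 in the PHZ spleen. In the liver, 36 of the 50 nuclear and 0 of the 21 extranuclear genes had under 5000 transcripts. With a minimum of 5000 the extranuclear genes of the liver were therefore the more numerous. At 2-fold, the nuclear counts were 23 (7.88%), 7 (2.77%), 24 (8.19%) and 18 (6.59%) and the extranuclear counts 0 (0.0%), 1 (0.395%), 0 (0.0%) and 2 (0.733%). The distribution was lopsided, with log2 values reaching from 2.52 to 2.73 at the nuclear end and from -0.93 to -1.32 at the other.

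**Figure D1:**
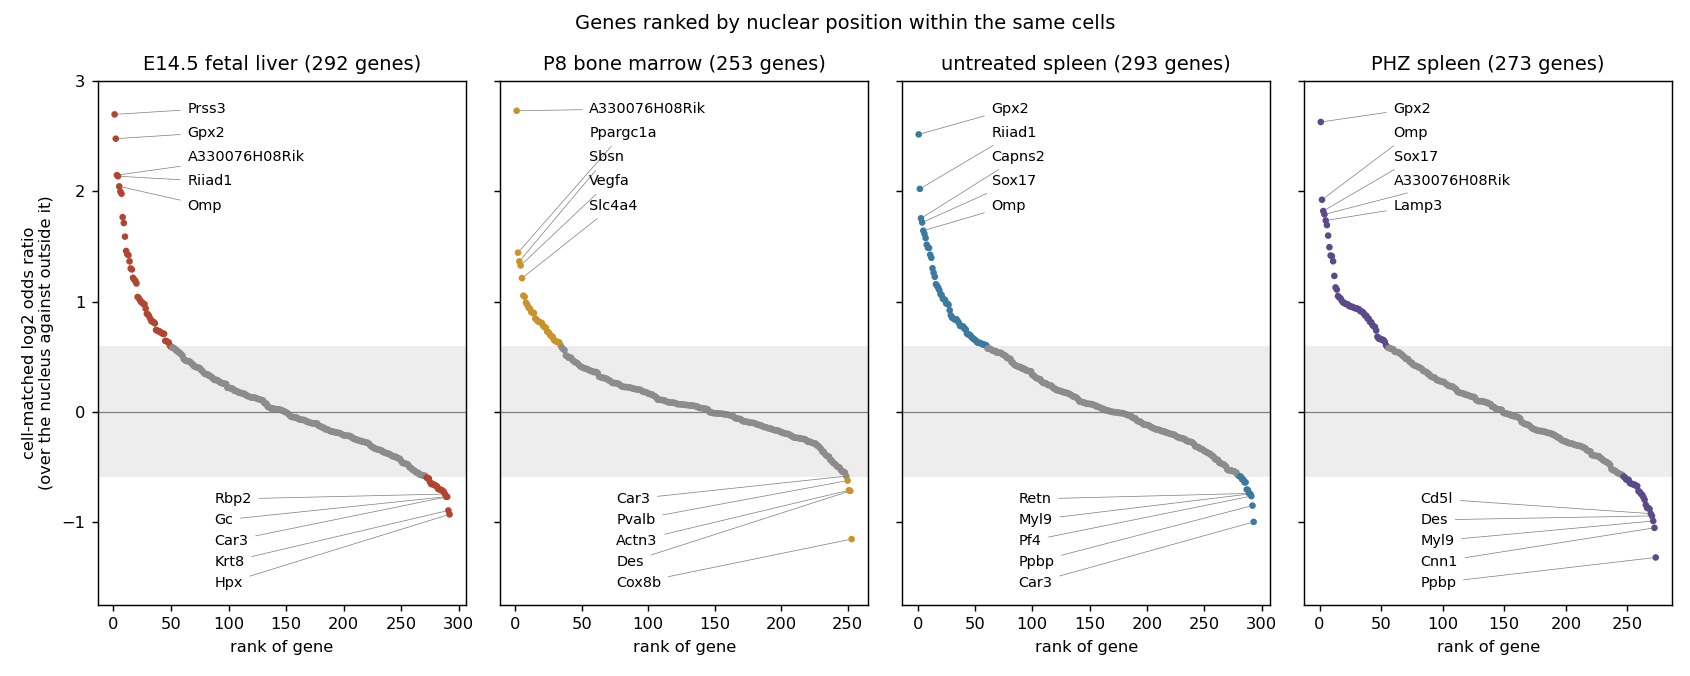
Cell-matched log2 odds ratio (y axis) of each gene tested against its rank (x axis) in each of the 4 sections, with the 5 highest and 5 lowest genes named. The grey band is 1.5-fold either way, colored points lie beyond it, and the nuclear tail reaches 2.70, 2.73, 2.52 and 2.63 while the other tail ends between -0.93 and -1.32.

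Several of the most nuclear genes were the same from tissue to tissue. Gpx2 transcripts were 86.5% nuclear in the E14.5 liver (95% interval 85.0 to 87.9, 2309 transcripts), 89.6% in the untreated spleen (88.2 to 90.8, 2169 transcripts) and 87.7% in the PHZ spleen (85.9 to 89.3, 1438 transcripts). Their cell-matched odds of being nuclear were 5.57, 5.72 and 6.18 times those of the other genes, while the gene did not reach 1000 transcripts in the bone marrow. Its log2 values were 2.48, 2.52 and 2.63, and the lowest of any quadrant was 1.83, in the fetal liver. With transcripts from the middle of the section's depth alone, they were 2.70, 3.62 and 2.93.

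A330076H08Rik, the noncoding RNA, was 81.9% nuclear in the E14.5 liver, 77.6% in the P8 marrow, 80.5% in the untreated spleen and 80.7% in the PHZ spleen, on 1333 to 3780 transcripts. Its cell-matched log2 values were 2.15, 2.73, 1.49 and 1.79, the highest mean of the 195 genes measured in all 4 sections. The bone marrow stood highest in the cell-matched measure although its plain share was the lowest, and nuclei filled 26.2% of the area of the cells that held the gene there, against 44.1% to 59.0% elsewhere. Its values overlapped between sections when taken by quadrant, the bone marrow alone spanning 1.36 to 3.34. In cells whose nucleus filled 30 to 70% of the outline, a setting chosen after seeing the data, the marrow value was 1.68 and no longer the highest. The other member annotated as a long noncoding RNA, 0610005C13Rik, reached the minimum only in the fetal liver, where it was 63.1% nuclear on 18796 transcripts with a log2 value of 0.40, short of 1.5-fold.

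Omp, the olfactory marker protein, had log2 values of 2.04, 1.64 and 1.92 in the E14.5 liver, the untreated and the PHZ spleen, on 1357 to 5873 transcripts. Riiad1 had 2.14 in the fetal liver and 2.02 in the untreated spleen. Sox17, a transcription factor of endothelium, had 1.59, 1.72 and 1.82 in the fetal liver, the untreated and the PHZ spleen, and was the most nuclear endothelial gene in each. Prss3 reached 2.70 in the fetal liver, Capns2, a calpain subunit, 1.76 in the untreated spleen, and Lamp3, a lysosomal membrane protein of dendritic cells, 1.22 in the untreated spleen and 1.73 in the PHZ spleen. In the P8 marrow the genes after A330076H08Rik were Ppargc1a at 1.44, a coactivator of mitochondrial genes, Sbsn at 1.36, Vegfa at 1.33, the angiogenic growth factor, and Slc4a4 at 1.21, a bicarbonate transporter.

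Genes at the nuclear end were mostly scarce, with exceptions such as Vegfa in the P8 marrow, at 16562 transcripts, and Gsdmd in the untreated spleen, at 58461. Genes at least 2-fold more nuclear had a median of 1424 transcripts in the E14.5 liver, where the median of all genes tested was 12554.5, and 20 of the 23 had under 5000. The medians were 1502 against 9839 in the P8 marrow, 1977.5 against 13339 in the untreated spleen and 1684.5 against 13353 in the PHZ spleen. Across genes the Spearman correlation of abundance with the cell-matched value was -0.44, -0.32, -0.33 and -0.23 in the 4 sections. Of the transcripts of negative control probes, 49.2% of 840 were nuclear in the E14.5 liver, 44.0% of 248 in the P8 marrow, 53.1% of 610 in the untreated spleen and 50.6% of 387 in the PHZ spleen. Control codewords, barcodes assigned to no probe, were 47.3%, 35.9%, 47.0% and 33.1% nuclear, and no control feature passed 174 transcripts in a section.

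Some genes at either end lay inside another gene. In the RefSeq annotation of GRCm38.p6, to which all 372 genes could be matched by symbol or, for 1, by synonym, the spans of 28 lay wholly within another annotated gene, Omp within Capn5, Capns2 within Lpcat2 and Prss3 within the T cell receptor beta locus Tcrb. Among genes at least 2-fold more nuclear, 2 of 23 lay inside another gene in the E14.5 liver, 0 of 7 in the P8 marrow, 3 of 24 in the untreated spleen and 4 of 18 in the PHZ spleen. The shares over all genes tested were 6.85%, 6.32%, 7.51% and 7.33%. Of the genes at least 1.5-fold less nuclear, 3 of 21 in the liver, 0 of 4 in the marrow, 0 of 13 in the untreated and 1 of 27 in the PHZ spleen lay inside another gene. The deposited files name no genome build and the strand was not compared, and the part of the surrounding genes in these values was not tested.

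The extranuclear end differed from tissue to tissue. In the E14.5 liver it held hepatocyte messages. Hpx, for the heme carrier hemopexin, was 40.8% nuclear (40.5 to 41.0, 125127 transcripts) with a log2 value of -0.93, and Gc, the vitamin D binding protein, was 43.5% nuclear with -0.77. Krt8, a keratin of hepatocytes, had -0.89, Car3 had -0.77 and Rbp2, a retinol carrier, had -0.75. Nuclei filled between 54.3% and 56.2% of the cells that held these transcripts, close to the 55.2% of the section as a whole, while the measured shares were between 40.8% and 44.0%. Their quadrants stayed between -0.99 and -0.67.

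In the P8 marrow the lowest genes were those of muscle fibers. Cox8b was 12.7% nuclear with a log2 value of -1.15, Des, for the intermediate filament desmin, 16.8% with -0.72, Actn3, a sarcomere actinin, 15.8% with -0.71, Pvalb, the calcium buffer parvalbumin, 16.1% with -0.62 and Car3 20.4% with -0.58. The shares expected from area were 15.0%, 15.7%, 14.2%, 13.8% and 18.3% in that order, so that each gene but Cox8b was above its own. In cells with a nucleus over 30 to 70% of the outline, a setting chosen after seeing the data, Cox8b was at -0.61, still past 1.5-fold but no longer past 2-fold. The quadrants differed widely, Actn3 running from 15.2% to 58.1% and Pvalb from 15.8% to 57.4%.

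In the spleens, genes of platelets and contractile cells were among the lowest. Ppbp, a platelet chemokine, was 40.3% nuclear with a log2 value of -0.85 in the untreated spleen and 20.9% with -1.32 in the PHZ spleen, on 33085 and 29313 transcripts. The same gene was close to its cell neighbors in the E14.5 liver, at 49.7% and -0.14, and in the P8 marrow, at 46.6% and -0.27. Pf4, the other platelet chemokine, gave -0.13, -0.33, -0.76 and -0.56 in the order of fetal liver, bone marrow, untreated and PHZ spleen. Myl9, a smooth muscle myosin light chain, gave -0.74 in the untreated spleen and -0.99 in the PHZ spleen, Cnn1 -0.54 and -1.05, Des -0.53 and -0.94, and Cd5l, a protein secreted by macrophages, -0.59 and -0.92.

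Car3 and Retn, which fat cells express, varied most from place to place among the lowest genes of the untreated spleen. Car3 was 16.3% nuclear with cell-matched odds of 0.501 times those of the other genes and Retn, for resistin, 19.4% with 0.599 times. By quadrant, however, Car3 ran from 15.1% to 62.4% and Retn from 15.4% to 79.4%, and their log2 values changed sign between quadrants. In cells whose nucleus filled 30 to 70% of the outline, Retn was at 0.42 and Car3 at -0.12.

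The order of genes was largely shared between sections. Over the genes measured in both sections of a pair, the Spearman correlation of the cell-matched value was 0.85 between the spleens over 258 genes, 0.70 and 0.75 between the fetal liver and either spleen over 239 and 229 genes, and 0.67 to 0.69 for the pairs with bone marrow. These are correlations across genes, which are not independent, and all sections share 1 panel and 1 set of probes. Of the 195 genes measured in all 4 sections, 108 kept 1 side of 0 throughout, 59 on the nuclear and 49 on the extranuclear side. The median gene ranged over 0.41 on the log2 scale.

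Genes that were nuclear everywhere numbered 14, or 7.18% of the 195, and none was 1.5-fold extranuclear in all 4 (0 of 195, or 0.0%). The 14 were A330076H08Rik, Sbsn, Mrgpra2a, Gfap, Vegfa, Tet2, Pi16, Cd300lf, Runx2, Cd274, Gsdmd, Ms4a6b, Csf3r and Ikzf2. Vegfa was the most nuclear cytokine-list gene of the bone marrow, and gave 0.81, 1.33, 1.01 and 0.85 in the 4 sections. In the marrow its lowest quadrant was at 0.39, and cells with a nucleus over 30 to 70% of the outline gave 0.64. Tet2, which oxidizes methylated cytosine in DNA, gave 0.87, 0.97, 1.02 and 1.13. Csf3r, the receptor for granulocyte colony-stimulating factor, gave 0.82, 0.90, 0.68 and 0.84, and Runx2, a transcription factor of bone formation, 1.20, 0.84, 0.62 and 0.97.

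Of the same 195 genes, none was 1.5-fold extranuclear in 3 or more sections, and 13 were so in 2. These were Ccl9, Tagln, Anxa2, Serpinf1, Cavin2, Gng11, Ctla2a, Myl9, Ppbp, Des and all 3 C1q genes, whose products form the complement starter C1q and mark the macrophages of erythroid islands. C1qa gave -0.53, -0.38, -0.70 and -0.87 in the E14.5 liver, P8 marrow, untreated and PHZ spleen. C1qb gave -0.55, -0.50, -0.62 and -0.65, and C1qc -0.51, -0.40, -0.64 and -0.87. C1qb ranged over only 0.15 among the sections while its plain share went from 46.4% in the fetal liver to 34.8% in the PHZ spleen.

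**Figure D2:**
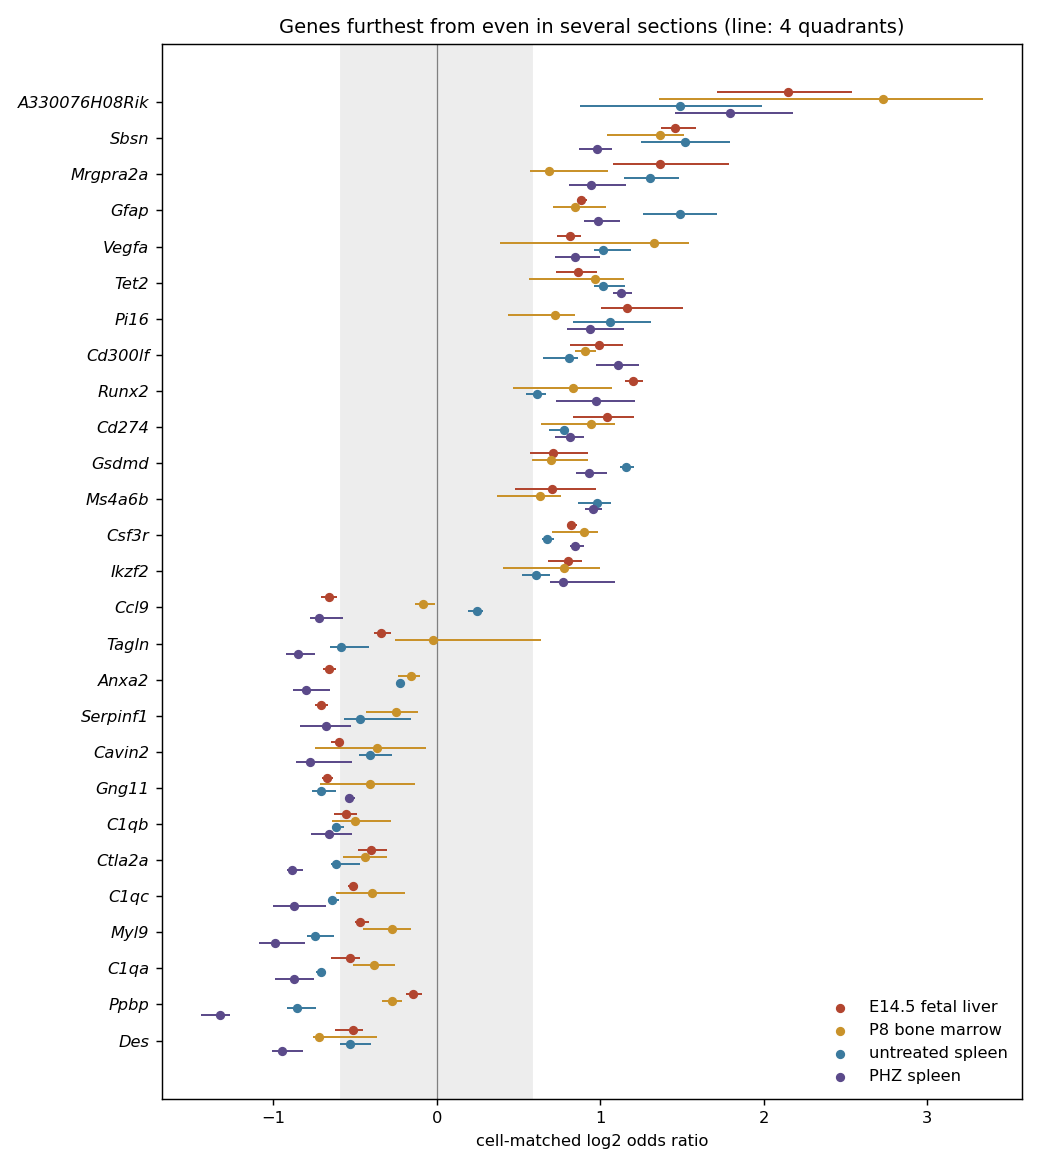
Cell-matched log2 odds ratio (x axis) of the 14 genes at least 1.5-fold nuclear in all 4 sections and the 13 at least 1.5-fold extranuclear in 2 (y axis), out of the 195 genes measured in all 4. Points are sections, lines span the 4 quadrants of a section and the grey band is 1.5-fold either way; the upper group lies to the right of the band throughout by section, and Ccl9 is the one gene of the lower group whose sections lie on both sides of 0.

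The genes whose placement varied most were Ptn, Pygm, Mustn1, Pnmal2 and A330076H08Rik. Ptn, for the growth factor pleiotrophin, gave -0.18 in the E14.5 liver, 0.10 in the P8 marrow, 0.52 in the untreated spleen and 1.49 in the PHZ spleen, a span of 1.67. It was abundant where it was even, with 34113 and 39055 transcripts in the fetal liver and bone marrow, and scarce in the spleens, with 2094 and 1438. Pygm, the muscle glycogen phosphorylase, gave 0.64, -0.23, 0.70 and 1.41, with its lowest value and its 27486 transcripts in the section that held muscle. Mustn1, another gene of muscle and skeleton, gave 1.42, -0.10, 0.55 and 0.15. Pnmal2 gave 0.72, 0.60, -0.19 and -0.54, on 1063 to 2386 transcripts.

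The erythroid genes sat near their cell neighbors, with a few exceptions toward the nucleus. In erythroid cells those neighbors include the other erythroid genes, which can draw the values of the list as a whole toward 0. The list medians therefore say little about where erythroid transcripts lie, and more about how the genes differ from each other. List medians were 0.16 in the E14.5 liver, 0.10 in the P8 marrow, 0.04 in the untreated spleen and 0.12 in the PHZ spleen, where all genes tested had medians of 0.01, 0.06, 0.07 and 0.08. None of the 23 or 24 genes measured was 1.5-fold extranuclear in a section, and 2, 1, 3 and 2 were 1.5-fold nuclear. Over all genes tested, 17.1%, 13.4%, 20.5% and 20.1% were nuclear and 7.19%, 1.58%, 4.44% and 9.89% extranuclear by that rule, so the nuclear count of this list was below the general share in each section. Epor, the erythropoietin receptor, was 73.4%, 73.3%, 62.5% and 71.5% nuclear, with log2 values of 1.00, 0.82, 0.45 and 0.98. Rhd, the carrier of the Rh blood group, gave 0.74, 0.49, 0.57 and 0.52, and Tfrc, the transferrin receptor that takes up iron, 0.56, 0.51, 0.85 and 0.96.

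Other erythroid genes lay closer to 0 or below it. Hbb-bt, a beta globin, gave -0.00, -0.21, -0.55 and -0.27 in the E14.5 liver, P8 marrow, untreated and PHZ spleen, and was 57.0%, 56.7%, 46.1% and 47.7% nuclear. Car2, a carbonic anhydrase of red cells, gave -0.07, -0.27, -0.32 and -0.22, and Slc4a1, the anion exchanger band 3, 0.13, 0.13, -0.21 and 0.13. The erythroid transcription factors Gata1 and Klf1 lay between -0.10 and 0.12 in every section. Fech, the ferrochelatase that inserts iron into heme, gave -0.11 to 0.03, whereas Slc25a37, the mitochondrial iron importer mitoferrin, gave 0.84 in the untreated spleen and 0.23 to 0.32 elsewhere.

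Macrophage genes were less nuclear than their cell neighbors, by list median, in every section. Their medians were -0.26 over 21 genes in the E14.5 liver, -0.15 over 19 in the P8 marrow, -0.38 over 21 in the untreated spleen and -0.39 over 21 in the PHZ spleen. In the same order 3, 2, 4 and 3 of them lay above 0. The highest were Ms4a7, at 0.46 in the liver, and Siglec1, at 0.37 in the PHZ spleen. None of the list was 1.5-fold nuclear, where 13.4% to 20.5% of all genes were. At 1.5-fold, 0, 0, 4 and 8 were extranuclear, beside 7.19%, 1.58%, 4.44% and 9.89% of all genes. Beside the C1q genes, Selenop, a secreted selenium carrier, gave -0.57, -0.36, -0.38 and -0.75, and Aif1, a cytosolic actin-binding protein, -0.25, -0.22, -0.57 and -0.60. Cd68, a lysosomal protein, went from -0.01 in the fetal liver to -0.73 in the PHZ spleen. The transcription factor Spic lay between -0.08 and 0.23, and Maf went from -0.33 in the fetal liver to 0.01 in the untreated spleen.

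Megakaryocyte genes showed the lowest list medians of the spleens, -0.54 in the untreated spleen and -0.56 in the PHZ spleen over 5 genes, and -0.14 and -0.33 in the fetal liver and bone marrow. Plasma protein genes had a median of -0.38 over 16 genes in the E14.5 liver, with 4 of them 1.5-fold extranuclear and none nuclear, beside 7.19% and 17.1% of all genes there. Hc, complement component C5, was the only one of the 16 above 0, at 0.40. Skeletal muscle genes had a median of -0.49 over 15 genes in the P8 marrow, with 4 at least 1.5-fold extranuclear, beside 1.58% of all genes.

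Genes of T and NK cells lay on the nuclear side. In the untreated spleen the median was 0.50 over 16 genes, 7 of which were 1.5-fold nuclear, and in the PHZ spleen 0.74 over 15, 10 of which were, beside 20.5% and 20.1% of all genes in these sections. None of the 4, 3, 16 and 15 genes measured in the liver, marrow, untreated and PHZ spleen was 1.5-fold extranuclear, where 1.58% to 9.89% of all genes were. With so few genes, that is close to the general shares. The NK cell receptor Klra8 was 78.9% nuclear in the untreated spleen and 80.4% in the PHZ spleen, at 1.26 and 1.69, and the regulatory T cell genes Ctla4 and Il2ra gave 0.77 and 0.88 in the untreated spleen and 1.03 and 0.95 in the PHZ spleen. The chemokine Ccl5, at -0.06 and -0.04, and the inhibitory receptor Lag3, at -0.02 and 0.05, were close to even. Granulocyte genes also had positive medians, 0.34, 0.11, 0.28 and 0.25. At 1.5-fold, 3 of 13, 2 of 15, 3 of 14 and 5 of 15 were nuclear, beside 17.1%, 13.4%, 20.5% and 20.1% of all genes. None was 1.5-fold extranuclear, which for lists this short differs little from the general shares.

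By class of protein, the 70 genes for secreted proteins had negative medians in all 4 sections, -0.26, -0.06, -0.24 and -0.20 over 45 to 54 measured genes. The 78 genes for membrane proteins had positive ones, 0.07, 0.20, 0.20 and 0.29 over 61 to 72. The medians of all genes tested were also positive, at 0.01, 0.06, 0.07 and 0.08. At 1.5-fold, 6, 0, 8 and 10 secreted-protein genes were extranuclear and 3, 1, 3 and 3 nuclear. Among the 63, 61, 72 and 70 membrane-protein genes measured, 1, 0, 0 and 2 were extranuclear and 8, 10, 18 and 18 nuclear. Beside these stand 7.19%, 1.58%, 4.44% and 9.89% extranuclear and 17.1%, 13.4%, 20.5% and 20.1% nuclear over all genes tested. The nuclear count of the membrane-protein genes was below the general share in the liver and not far above it elsewhere. The 37 genes for cytosolic proteins had medians of -0.22, -0.18, -0.07 and -0.19. Transcription factor genes had medians of 0.13, 0.24, 0.05 and 0.23 over 10 to 15 genes. At 1.5-fold, 3 of 15, 3 of 10, 4 of 13 and 5 of 12 were nuclear. None was extranuclear, which with so few genes is close to the general shares.

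**Figure D3:**
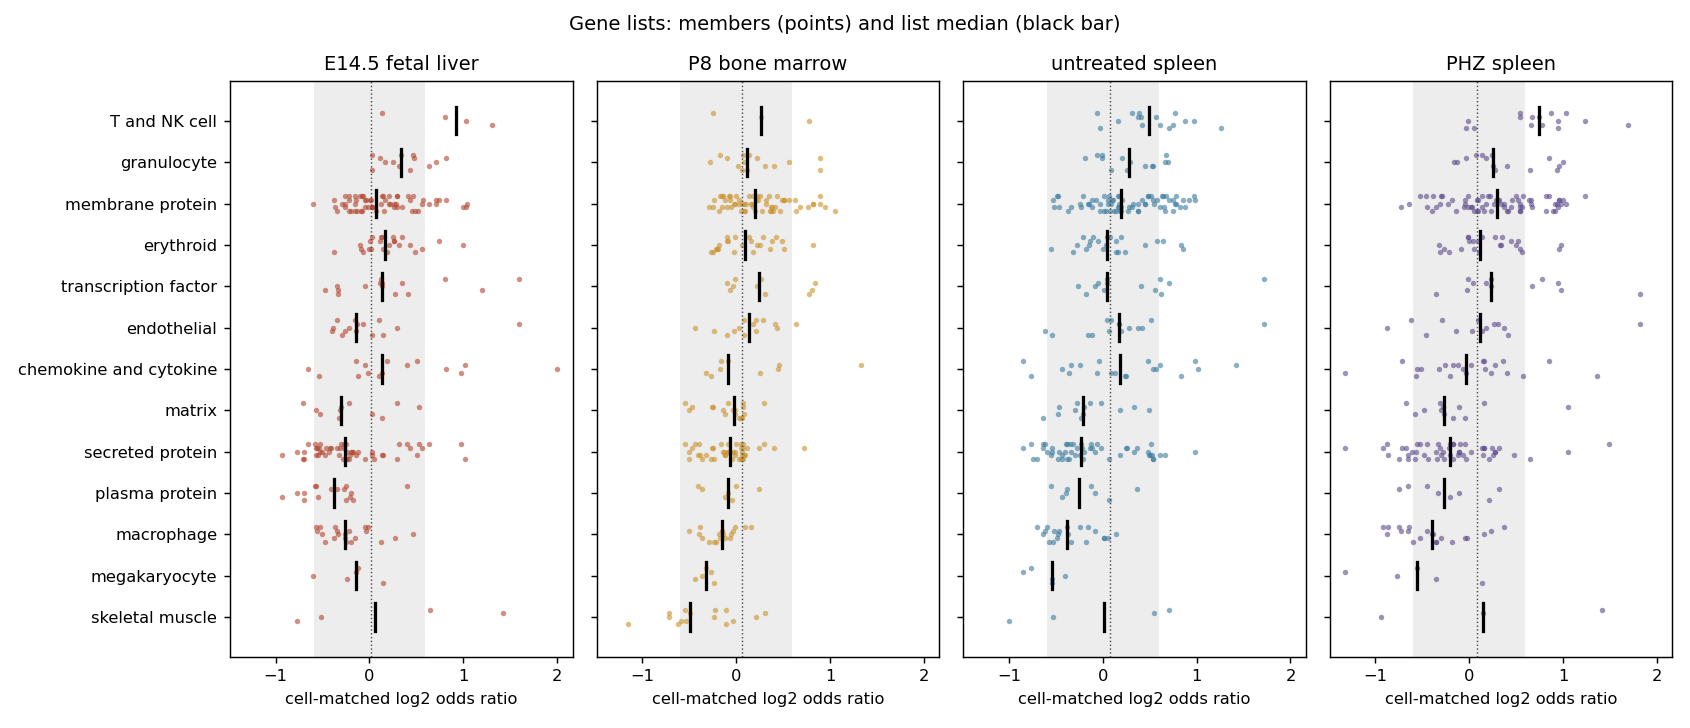
Cell-matched log2 odds ratio (x axis) of the members of 13 gene lists (y axis) in each section, with the list median as a black bar, the median of all genes tested as a dotted line and 1.5-fold either way as a grey band. Macrophage medians lie at -0.26, -0.15, -0.38 and -0.39, left of the dotted line in all 4 sections, and T and NK cell medians at 0.92, 0.26, 0.50 and 0.74 to its right, the first of these over 4 genes and the second over 3.

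Between the spleens, the plain nuclear share was lower after PHZ for 230 of the 258 genes measured in both, by a median of 8.13 percentage points. Nuclei filled a smaller part of the cell outlines in the PHZ spleen, a median 45.3% against 61.2%, and the section held more erythroid and fewer T cell markers. The cell-matched value sets each gene against the other genes of its cells, so a shift common to all genes drops out of it. Its median difference, -0.01, therefore says nothing about the fall of the plain share. By this value 62.4% of the genes moved by under 0.25 on the log2 scale. In the PHZ spleen 6 genes (2.33% of 258) had at least 1.5-fold higher and 3 (1.16%) at least 1.5-fold lower cell-matched odds.

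The 3 lower ones were chemokine genes, whose products draw in leukocytes. Ccl9 transcripts were 62.5% nuclear in the untreated spleen (12518 transcripts) and 33.2% in the PHZ spleen (104935), and the log2 value fell by 0.97, from 0.25 to -0.72. The quadrants did not overlap, with 0.19 to 0.28 in the untreated spleen and -0.78 to -0.57 in the PHZ spleen. Ccl2 went from 73.4% to 47.0% nuclear and from 0.98 to 0.15, while its transcripts went from 1153 to 13095. Ccl4 went from 67.6% to 46.3% and from 0.54 to -0.06, with 3396 and 10407 transcripts.

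Ccl3, at 0.61 and 0.27, and Ccl11, at 0.49 and 0.02, were short of 1.5-fold and overlapped between the spleens by quadrant, and Ccl5 was at -0.06 and -0.04. Of the 19 chemokine and cytokine genes measured in both spleens, 13 had lower values in the PHZ spleen, and the median difference was -0.21, beside -0.01 over all 258. Not all moved that way: Cxcl10, an interferon-induced chemokine, had -0.24 and 0.14, and Il1b, the inflammatory cytokine interleukin-1 beta, -0.04 and 0.40. Next in order below the chemokines stood Anxa2, a membrane-binding annexin, which went from -0.22 to -0.80, and Ms4a7, a macrophage surface gene, from 0.01 to -0.53, both short of 1.5-fold.

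The genes with higher values in the PHZ spleen belonged to several cell types. Ptn rose by 0.97, but its quadrants overlapped, spanning -0.08 to 1.39 and 0.86 to 2.03. Asprv1, an aspartic protease gene, went from -0.25 to 0.57, Cxcr2, the neutrophil chemokine receptor, from 0.21 to 0.99, and Rsad2, the interferon-induced antiviral enzyme viperin, from -0.15 to 0.58. Pygm went from 0.70 to 1.41 and Vwf, the von Willebrand factor of endothelium and platelets, from -0.54 to 0.14. The quadrants of the 2 spleens did not overlap for 8 of the 9 genes past 1.5-fold. That was common, however, also among genes that moved little, such as Hk1, at 0.07 and -0.01, and Slc40a1, at -0.48 and -0.39. It does not set these genes apart. The lower genes past 1.5-fold all had more transcripts after PHZ, Ccl9 going from 12518 to 104935. The higher ones were divided. Rsad2 went from 15284 to 151084 transcripts, Vwf from 8578 to 19492 and Asprv1 from 2718 to 4679. Cxcr2 went from 10148 to 7696, Pygm from 4091 to 2755 and Ptn from 2094 to 1438. The part of abundance in these differences was not tested.

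Among the lists, 14 of 15 T and NK cell genes had higher values in the PHZ spleen, with a median difference of 0.23, although none passed 1.5-fold. Over all 258 genes, 122 were higher and 136 lower. These rises are relative to the other genes of the same cells. The plain nuclear share of Cd3e went from 70.7% to 67.2% and of Cd8a from 69.2% to 66.4%, while that of Klra8 went from 78.9% to 80.4%. Transcripts of Cd3e went from 96355 to 17316 and of Cd8a from 49513 to 6406, but of Ctla4 from 12666 to 13326. Erythroid genes had a median difference of 0.09, with 14 of 23 higher, and Epor went from 0.45 to 0.98. Macrophage genes had a median difference of -0.04, with 14 of 21 lower. When only transcripts from the middle of the section's depth were used, 10 genes were 1.5-fold higher and 15 lower, all 9 named above except Ccl4, at -0.54, being among them. In cells with a nucleus over 30 to 70% of the outline, Cxcr2 differed by 0.43 and Asprv1 by 0.55, both short of 1.5-fold, as they were by plain odds at 0.44 and 0.55. At a quality score of 30, Ccl4 differed by -0.37.

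**Figure D4:**
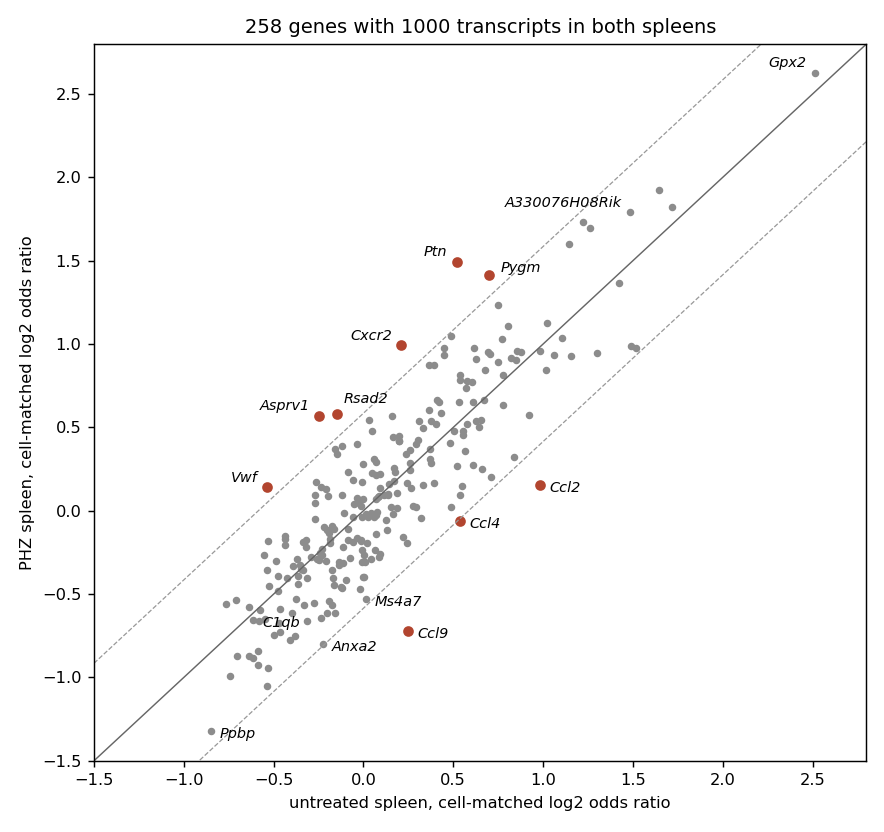
Cell-matched log2 odds ratio of the 258 genes measured in both spleens, untreated on the x axis and PHZ on the y axis. The solid line is equality, the dashed lines are 1.5-fold apart, red points are the 9 genes beyond them and Ccl9 lies furthest below, at 0.25 and -0.72.

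The nuclear share also varied with how many transcripts of a gene a cell held. Comparing cells with 5 to 9 transcripts of a gene against cells with 1, the share was higher in the former for 147 of 169 genes in the E14.5 liver, 88 of 158 in the P8 marrow, 120 of 170 in the untreated spleen and 140 of 171 in the PHZ spleen. The median differences were 7.70, 1.49, 5.50 and 7.86 percentage points. Cells with 10 or more had the higher share for 95 of 113, 44 of 104, 69 of 110 and 77 of 101 genes, with medians of 9.91, -2.68, 4.34 and 8.33 points, so the marrow ran the other way in that bin. Cells with 1 and with many transcripts of a gene were not matched for cell type, so the groups may differ in more than the count.

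Slc4a1 rose from 38.5% nuclear in cells with 1 transcript to 59.8% in cells with 10 or more in the PHZ spleen, and from 41.0% to 65.3% in the P8 marrow. Vegfa rose from 59.1% to 84.5% between cells with 1 and with 5 to 9 transcripts in the untreated spleen, and from 57.3% to 80.5% in the E14.5 liver. Epor rose from 65.7% to 75.2% in the fetal liver over the same bins. C1qb moved less, with 45.4% and 43.0% over the same bins in the untreated spleen and 36.5% and 34.2% in the PHZ spleen, although cells of the fetal liver with 10 or more reached 55.3%.

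Ccl9 took opposite courses in the spleens. In the untreated spleen it went from 55.6% in cells with 1 transcript to 73.7% in cells with 10 or more, and in the PHZ spleen from 35.8% to 32.7%. In every bin the share was higher in the untreated spleen, single-transcript cells included. Ppbp fell in the middle bins, from 26.3% at 1 transcript to 14.1% at 5 to 9 in the PHZ spleen, and was at 31.4% with 10 or more.

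**Figure D5:**
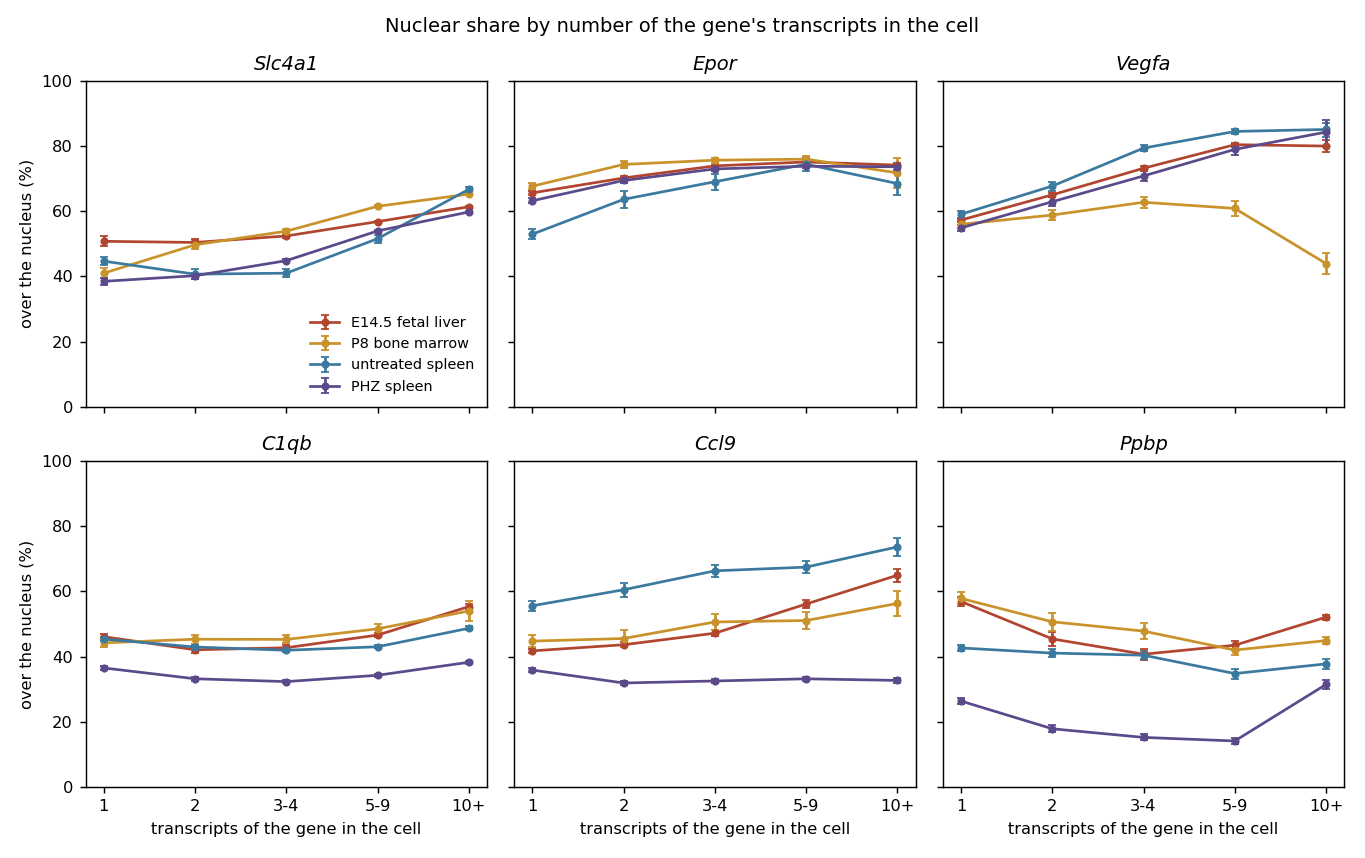
Percentage of transcripts over the nucleus (y axis) for 6 genes against the number of the gene's transcripts in the cell (x axis), with 1 line per section and exact binomial 95% intervals as bars, for bins of at least 300 transcripts. Slc4a1, Epor and Vegfa are higher at 5 to 9 transcripts than at 1 in all 4 sections, and Ccl9 rises from 55.6% to 73.7% in the untreated spleen while staying between 31.9% and 35.8% in the PHZ spleen.

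Extranuclear transcripts lay at different distances from the nucleus. For Epor the median distance from the nucleus was 0.61 µm in the E14.5 liver and 0.64 µm in the PHZ spleen. It was 2.73 µm for Ppbp in the PHZ spleen, against 1.05 µm in the untreated spleen, and 3.31 µm for Actn3 in the P8 marrow. Across genes, the Spearman correlation of this distance with the cell-matched value was -0.47, -0.20, -0.62 and -0.73 in the 4 sections, a description over genes that share cells.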

How the data were processed

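The authors deposited, for each section, Xenium tables of single transcripts with gene, position, quality score, cell and a mark for those over a nucleus, and counts per gene and cell, made by Xenium software 1.7.1.0 per the file headers; the score is a logarithmic decoding score of up to 40. The deposited counts were rebuilt exactly for all 477 genes from transcripts with a score of at least 20 in a cell. Python 3.11.15, numpy 2.4.6, pandas 2.3.3 and scipy 1.17.1 were used.

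Nuclear shares were given exact (Clopper-Pearson) 95% binomial intervals. Cell-matched odds were Mantel-Haenszel odds ratios with the cell as stratum. They were tried on simulated nuclear marks in the cells of the P8 marrow only. Those marks were drawn from nucleus area with no transcript in a wrong cell, so the trial does not cover errors of cell outlines. Quadrants split a section at the median position of its cells. With 1 section per condition no test was run. The panel held 379 predesigned and 98 added genes. Sections on a larger panel were not analysed here. RefSeq names (GRCm38.p6) were used only for symbols and overlap.

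Genes named were the 5 highest and 5 lowest by cell-matched odds per section, those with the highest and lowest share, the 5 largest rises and falls between spleens, the 5 widest ranges over 4 sections, and list members as examples; Vwf and the genes set apart in several sections were added after their values were seen. Genes and lists were chosen with earlier results of these data known. Alternatives were a score of 30, the middle of the depth range, transcripts up to 5 µm from the nucleus, cells with at least 20 transcripts, transcripts outside cells counted as extranuclear, omission of Hbb-bt, 5000 transcripts per gene, 2-fold odds, area-based and plain odds, and quadrants.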

Additional observations from a re-analysis of the deposited data

Results flagged for a closer look

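The genes Ccl9, Ccl4, Vwf, Rsad2 and Asprv1 lay on opposite sides of their cell neighbors in the untreated and the PHZ spleen as whole sections, at least 1.5-fold apart and with no overlap between the quadrants of one and the other. Quadrants without overlap were common between the spleens, also among genes that moved little. On the cell-matched log2 scale, PHZ minus untreated, Ccl9 differed by -0.97, Ccl4 by -0.60, Vwf by 0.68, Rsad2 by 0.73 and Asprv1 by 0.82. By quadrant Ccl9 alone kept its sides: Ccl4 spanned -0.23 to 0.19 and Vwf -0.12 to 0.28 in the PHZ spleen, and Rsad2 -0.47 to 0.27 and Asprv1 -0.62 to 0.06 in the untreated one. At a quality score of 30 the whole PHZ spleen gave Ccl4 a value of 0.18, on the same side as the untreated one. Ccl4, at -0.37 with that score, and Asprv1, at 0.55 with the nucleus over 30 to 70% of the cell, fell short of 1.5-fold. With 1 section each, these differences were not tested.

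Transcripts of panel genes outside all cells were left out of the main comparisons and counted only in an alternative setting. They were 2.83% of those with a sufficient score in the E14.5 liver, 10.6% in the P8 marrow, 0.594% in the untreated spleen and 1.73% in the PHZ spleen. Hbb-bt led them in the fetal liver and the PHZ spleen, with 15.2% and 7.22% of these transcripts, Col1a1, a bone matrix collagen, in the bone marrow with 31.9%, and Slc40a1, the iron exporter, in the untreated spleen with 5.17%.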

How the results depend on the processing

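No paired analysis was possible because each condition had 1 section. In the order E14.5 liver, P8 marrow, untreated and PHZ spleen, the nuclear share of all transcripts was 58.0%, 49.0%, 59.7% and 51.8% at a quality score of 30, 55.4%, 50.7%, 56.1% and 50.0% in the middle of the depth range, 57.5%, 52.8%, 59.3% and 52.5% up to 5 µm from the nucleus, and 55.6%, 43.7%, 58.6% and 50.1% with transcripts outside cells counted as extranuclear. Over quadrants it ran from 54.2% to 59.4%, 38.6% to 61.1%, 54.9% to 60.4% and 49.4% to 52.2%. Without Hbb-bt it was 48.5% in the marrow, 59.0% in the untreated spleen and 51.1% in the PHZ spleen, and in marrow cells with at least 20 transcripts 49.0%.

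With 5000 transcripts per gene, 15, 38 and 40 genes of the liver, untreated and PHZ spleen were nuclear by plain odds, and 14, 11, 28 and 26 of the 4 sections by cell-matched odds. Of the genes extranuclear by cell-matched odds, 0 of 21, 1 of 4, 0 of 13 and 6 of 27 fell below that minimum. The liver thus had more extranuclear than nuclear genes at 5000 transcripts. At 2-fold the plain counts were 23, 23, 31 and 33 nuclear and 4, 50, 15 and 30 extranuclear, and the cell-matched ones 23, 7, 24 and 18 and 0, 1, 0 and 2. Against the area-expected share, 68, 103 and 120 genes of the liver, marrow and PHZ spleen were nuclear and 12, 0, 1 and 0 of the 4 sections extranuclear. The extranuclear genes of the marrow and the PHZ spleen, macrophage genes of the latter among them, thus passed 1.5-fold only against their cell neighbors. A gene can still lie below its area-expected share by less than that, as Cox8b did in the marrow. In the middle of the depth range 35, 7 and 32 genes of the liver, marrow and untreated spleen were extranuclear by cell-matched odds. In cells whose nucleus filled 30 to 70% of the outline, a setting chosen after seeing the data, the marrow had 8.

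Between the spleens, 10 genes were higher and 15 lower after PHZ in the middle of the depth range, 3 and 1 with 5000 transcripts, 0 and 0 at 2-fold, and 19 and 25 by plain odds. With the nucleus at 30 to 70%, 6 were lower, Krt19 in the PHZ spleen went from -0.67 to 0.024 and Retn in the untreated spleen from -0.74 to 0.42. The correlation of shares between liver and marrow was 0.86 with 5000 transcripts, and between marrow and untreated spleen 0.69 by cell-matched odds. The cause of these changes was not tested. Rare genes, with 1000 to 5000 transcripts, had the widest intervals.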
